A study of Canis lupus familiaris with 12 samples.

Results

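The 4 genes described here are those of the prostaglandin receptors EP2 (PTGER2), EP4 (PTGER4) and FP (PTGFR) and of the prostaglandin transporter (SLCO2A1). They were chosen as the array's probes made for a dog RefSeq transcript of any of these genes, which gave 1 probe per gene and 4 of the 832 genes that could be named on the array. All 4 probes passed the filter on dim probes, as did at least 1 probe of 614 of the 832 named genes. The cells were Mi/CMM1, an established line from a dog melanoma, grown in culture and compared in 4 groups of 3 biological replicates on 12 single-colour Agilent arrays. The control cells had no drug, and no vehicle is named for them. By the sample labels the others received piroxicam at 116 µM, carprofen at 779 µM or robenacoxib at 156 µM for 6 h, each drug's half-maximal inhibitory concentration. The treatment protocol in the same record exchanges the piroxicam and carprofen doses and gives 24 h, so dose and time are uncertain, and in either version the 3 drugs were given at different doses. The line stands for a single tumour.

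Prostaglandins are short-lived lipid signals made from arachidonic acid by the cyclooxygenases, which nonsteroidal anti-inflammatory drugs such as these 3 inhibit. EP2 and EP4 both bind prostaglandin E2 and raise cyclic AMP through stimulatory G proteins; EP4 can also signal through other routes. FP binds prostaglandin F2α and acts through Gq, phospholipase C and calcium. The prostaglandin transporter carries prostaglandins from outside the cell into it, where they can be broken down, and so shortens the signal at the receptors. In many tumours prostaglandin E2 acting on EP2 and EP4 is known to favour growth, migration and escape from immune cells.

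Levels are given as the log2 of the processed signal minus the log2 of the 75th percentile of the same array, so a level below 0 is dimmer than that percentile, and differences between groups are relative to the bulk of each array's probes. A change is called at an adjusted p below 0.05 in limma, with Benjamini-Hochberg adjustment over all 31996 tested probes of a comparison. The 3 slides did not mix the groups evenly. Slide 1 held the 3 control arrays and carprofen replicate 1, slide 2 held carprofen replicates 2 and 3 with piroxicam replicates 1 and 2, and slide 3 held piroxicam replicate 3 with the 3 robenacoxib arrays. Log2 signals of arrays correlated at 0.9946 to 0.9982 within groups and 0.9901 to 0.9975 between them, no spot was saturated, and 66.2% to 80.0% of spots were well above background. Of 12 melanocyte-lineage markers 5 could be named. MITF, the lineage's master regulator, was well above background on 12 of 12 arrays, whereas TYR, the pigment enzyme tyrosinase, and EDNRB were so on 0 arrays, KIT on 4 and MC1R on 8. The fibroblast collagens COL1A1 and COL1A2 were well above background on 12 of 12 arrays. Summed signals relative to the 75th percentile, over the named fibroblast markers (4 of 7), were 74.1 to 76.3 in control, 68.7 to 72.2 in piroxicam, 64.9 to 68.5 in carprofen and 70.3 to 71.3 in robenacoxib arrays. The melanocyte sums were 0.710 to 0.732, 0.686 to 0.720, 0.656 to 0.677 and 0.746 to 0.765 in the same order. COL1A2 and COL1A1, at levels of 6.00 and 3.41 in control, made up most of the fibroblast sums. DCN was at -5.26 and PDGFRB at -3.30. Of these 4 markers 2 were called lower by limma with each drug, COL1A2 and DCN with piroxicam. PDGFRB, on its brighter probe, was called higher with piroxicam (0.51). With carprofen and robenacoxib PDGFRB differed by 0.40 and 0.27, not called. Leukocyte sums (2 of 8 markers, CD4 and CD8A) lay between 0.070 and 0.116 and endothelial sums (2 of 5 markers, VWF and KDR, KDR on 0 arrays) between 1.21 and 1.45 in all groups, and 0 of 6 epithelial markers could be named. The part of these shifts in the results below was not tested. Since RNA came from whole cultures, fewer cells expressing a gene and less RNA per cell cannot be told apart.

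PTGER2, the EP2 receptor, was lower in piroxicam-treated cells than in every other group and its probe was dim throughout. Its level was -5.72, -6.17 and -5.82 in control replicates 1 to 3. In piroxicam replicates it was -6.37, -6.79 and -7.03. In carprofen replicates it was -5.80, -5.76 and -5.87, and in robenacoxib replicates -5.93, -5.93 and -6.03. All 3 piroxicam arrays lay below the lowest of the other 9, while the control, carprofen and robenacoxib arrays lay close together apart from a low control replicate 2. Relative to control, PTGER2 fell with piroxicam by 0.83 on the log2 scale (SE 0.16, adjusted p = 0.00459). No fold is given, because 2 of the 3 piroxicam spots were not well above background. With carprofen the difference from control was 0.09 (95% interval -0.26 to 0.45, adjusted p = 0.704), and with robenacoxib it was -0.06 (-0.41 to 0.30, adjusted p = 0.842); both intervals include 0 and are wide for so dim a probe.

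The difference in PTGER2 was also called between the drugs. Carprofen-treated cells had a level 0.92 above that of piroxicam-treated cells (adjusted p = 0.00145). Robenacoxib-treated cells had a level 0.77 above it (adjusted p = 0.00606). These calls too were lost with the normexp background, where the carprofen difference was 0.17 with either scaling and the robenacoxib difference 0.36 with 75th-percentile scaling and 0.15 with quantile normalization, and in the authors' deposited values, where they were 0.31 and 0.28. Robenacoxib and carprofen arrays did not overlap, all robenacoxib values being lower, but the difference of -0.15 (-0.51 to 0.20, adjusted p = 0.617) was not called. Within slides the same order held. On slide 2 the piroxicam arrays were at -6.37 and -6.79 and the carprofen arrays at -5.76 and -5.87. The fit within slide 2, with 2 arrays in each arm, did not call this difference, though it called 4581 of all probes. On slide 3 the piroxicam array was at -7.03 and the robenacoxib arrays at -5.93, -5.93 and -6.03. That single piroxicam spot was not well above background. No slide held both control and piroxicam arrays.

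The measured fall of PTGER2 came at signals near the limit of the scanner. Processed signals were 40.9, 29.3 and 37.0 intensity units in control, 27.8, 20.6 and 18.0 in piroxicam, 40.5, 46.2 and 38.8 in carprofen and 35.9, 37.5 and 34.4 in robenacoxib arrays. The probe was well above background on 3 of 3 arrays of each other group but on 1 of 3 piroxicam arrays, replicate 1. Piroxicam replicates 2 and 3 had 0.898 and 0.632 times the lowest signal that was called well above background on the same array, and the scanner's own error there was 28.9% and 39.5% of the signal, against 12.5% to 15.2% in controls. The processed signal of negative-control spots, which is left after background subtraction, moved with the same group. Its median was 4.79, 5.22 and 6.59 on the piroxicam arrays, 4.62 on carprofen replicate 1 and 2.95 to 4.14 on the other arrays. The raw median signal of these spots was not higher with piroxicam. It was 46.5, 49 and 45 on the piroxicam arrays, 49.5, 50 and 56 in control and 46.5 to 52.5 on the carprofen and robenacoxib arrays. The raw median signal of the PTGER2 spot was 86.5, 80 and 73.5 with piroxicam and 95.5, 86 and 99 in control. It was 106, 93.5 and 94 with carprofen and 94, 90 and 86.5 with robenacoxib. Before background subtraction, piroxicam replicate 1 thus lay above control replicate 2 and level with robenacoxib replicate 3. The part of these signals in the difference was not tested. The call against control was lost when the background was taken from the local median with a normexp model and an offset of 50, where the difference was -0.21 with 75th-percentile scaling and -0.15 with quantile normalization, in the values the authors deposited (-0.28), with quantile normalization alone (-0.67, adjusted p = 0.0521), and with the slide as a block (-0.66, adjusted p = 0.197).

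**Figure D1:**
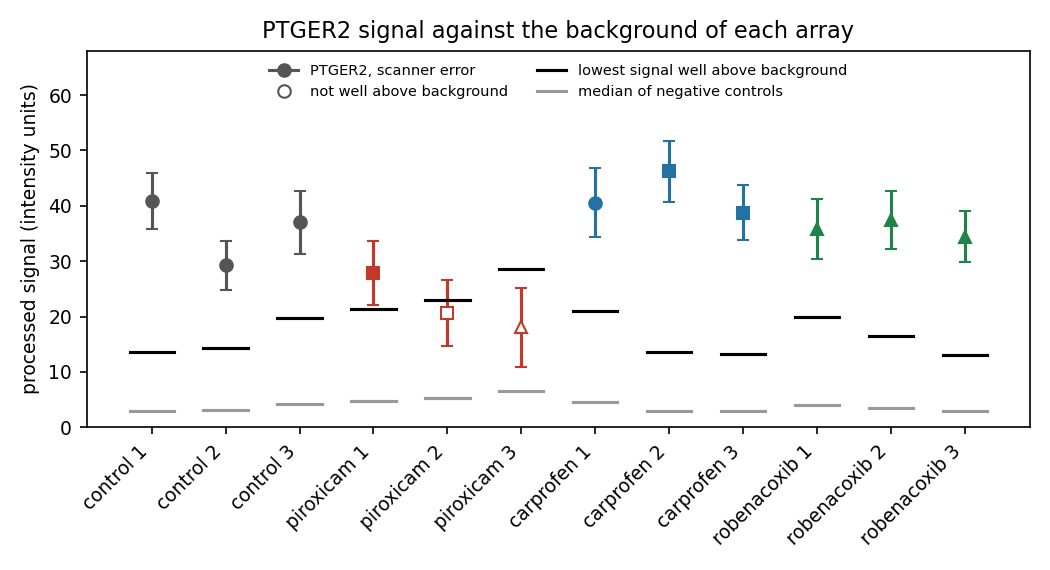
Processed signal of the PTGER2 probe on each of the 12 arrays, in intensity units, with the scanner's own error as bars; marker shape gives the slide (circle 1, square 2, triangle 3), black ticks the lowest signal called well above background on that array and grey ticks the median of its negative controls. The 3 piroxicam arrays sit at 18.0 to 27.8, below all other arrays, and 2 of them lie under the black tick.

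PTGER4, the EP4 receptor, was called higher with robenacoxib than in control, and by little. It was -2.07, -1.99 and -2.02 in control, -2.07, -2.02 and -1.95 in piroxicam, -2.04, -2.02 and -2.14 in carprofen and -1.91, -1.91 and -1.84 in robenacoxib replicates. The 3 robenacoxib arrays were the highest of the 12, and the other groups overlapped each other. Relative to control, PTGER4 rose with robenacoxib by 0.14 on the log2 scale (SE 0.04, adjusted p = 0.0454), 1.10-fold with an interval of 1.03 to 1.18. Relative to carprofen it was 0.18 higher with robenacoxib (adjusted p = 0.0391), and relative to piroxicam 0.13 higher, which was not called (adjusted p = 0.0550). Piroxicam differed from control by 0.01 (interval -0.09 to 0.11, adjusted p = 0.863) and carprofen by -0.04 (-0.13 to 0.06, adjusted p = 0.587). A change of 0.14 was no large one on this array: 61.5% of the tested probes changed less than this with robenacoxib.

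The robenacoxib change of PTGER4 stood near the threshold and depended on single arrays. Against control it was called in 4 of the 12 fits that left out 1 array, with differences of 0.12 to 0.16, and was lost without any of the control arrays, any of the robenacoxib arrays, piroxicam replicate 2 or carprofen replicate 1. Against carprofen it was kept in 2 of those 12 fits, without piroxicam replicate 1 or replicate 3, and was lost with the slide as a block (0.10, adjusted p = 0.630), both normexp settings, spike-in and median scaling, the authors' deposited values, no filter on dim probes and only the 2 groups in the fit. The call against control was also lost with quantile normalization, median scaling, no filter on dim probes, only the 2 groups in the fit, or the slide as a block (0.09, adjusted p = 0.729). With spike-in scaling PTGER4 was called higher with all 3 drugs, at 0.18 (piroxicam), 0.31 (carprofen) and 0.44 (robenacoxib) above control. On slide 3, where all robenacoxib arrays lay, the piroxicam array was at -1.95, above every control and carprofen array.

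PTGFR, the FP receptor, was higher with all 3 drugs than in control and highest with piroxicam. Its level was -3.71, -3.73 and -3.72 in control replicates, a spread far smaller than in the treated groups. In piroxicam replicates it was -3.30, -3.25 and -3.23, in carprofen replicates -3.43, -3.47 and -3.58, and in robenacoxib replicates -3.49, -3.46 and -3.56. The control arrays were the lowest 3 of the 12 and the piroxicam arrays the highest 3, with the carprofen and robenacoxib arrays intermixed between them. Processed signals ran from 158.0 to 163.8 intensity units in control, 234.6 to 250.2 in piroxicam, 189.4 to 226.3 in carprofen and 191.3 to 206.7 in robenacoxib arrays, well above background on 12 of 12 arrays.

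Relative to control, PTGFR rose with piroxicam by 0.46 on the log2 scale (SE 0.04, adjusted p = 8.91e-05), 1.38-fold with an interval of 1.29 to 1.47, more than 91.8% of the tested probes. It rose with carprofen by 0.23 (SE 0.04, adjusted p = 0.00274), 1.17-fold with an interval of 1.10 to 1.25, and with robenacoxib by 0.22 (SE 0.04, adjusted p = 0.00577), 1.16-fold with an interval of 1.09 to 1.24. The difference between drugs was tested directly. PTGFR was 0.23 lower with carprofen than with piroxicam (difference -0.23, adjusted p = 0.00196) and 0.24 lower with robenacoxib (difference -0.24, adjusted p = 0.00231), and neither pair of groups overlapped. Carprofen and robenacoxib differed by -0.01 (interval -0.11 to 0.08, adjusted p = 0.892) and overlapped. On this scale the order was control, then robenacoxib and carprofen without a difference beyond their spread, then piroxicam. The steps from carprofen and robenacoxib to piroxicam were not called with the normexp background, at -0.14 and -0.06 with 75th-percentile scaling and -0.16 and -0.15 with quantile normalization, nor in the authors' deposited values, at -0.19 and -0.18.

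The changes of PTGFR were compared across arrays and slides. Every fit that left out 1 array kept the calls of all 3 drugs against control. With the slide as a block the differences were 0.54 with piroxicam (adjusted p = 0.0118), 0.30 with carprofen (adjusted p = 0.0127) and 0.27 with robenacoxib (adjusted p = 0.205, not called). Control arrays lay only on slide 1, so each of these differences passes through carprofen replicate 1, the only treated array there. On slide 1 the single carprofen array was 0.30 above the mean of the control arrays, and on slide 3 the robenacoxib arrays differed from the single piroxicam array by -0.27; with 1 array in an arm, fits within these slides called 1 and 0 of all 31996 probes, so these are values with no test. On slide 2, with 2 arrays in each arm, carprofen differed from piroxicam by -0.25 (adjusted p = 0.0765). The sizes moved with the scaling. With the array's added RNA spike-ins as the reference, PTGFR rose by 0.63, 0.57 and 0.52 with piroxicam, carprofen and robenacoxib, all called, and the differences of carprofen (-0.06) and robenacoxib (-0.11) from piroxicam were no longer called. The piroxicam call was lost only with the normexp background and 75th-percentile scaling (0.23, adjusted p = 0.0671). The carprofen and robenacoxib calls were lost in the authors' deposited values (0.08 and 0.09) and with both normexp settings, quantile normalization and median scaling.

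SLCO2A1, the prostaglandin transporter, showed no called difference in any of the 6 comparisons. Its level was -2.31, -2.33 and -2.14 in control, -2.29, -2.15 and -2.39 in piroxicam, -2.45, -2.31 and -2.45 in carprofen and -2.38, -2.30 and -2.57 in robenacoxib replicates. All groups overlapped, with control replicate 3 and piroxicam replicate 2 highest and robenacoxib replicate 3 lowest. The difference from control was -0.01 with piroxicam (interval -0.21 to 0.18, adjusted p = 0.919), -0.14 with carprofen (-0.34 to 0.06, adjusted p = 0.264) and -0.16 with robenacoxib (-0.35 to 0.04, adjusted p = 0.247) by limma. Between the drugs the differences were -0.12 for carprofen against piroxicam, -0.14 for robenacoxib against piroxicam and -0.02 for robenacoxib against carprofen, with adjusted p of 0.313, 0.283 and 0.935. The intervals leave room for a fall of up to 0.35 on the log2 scale with robenacoxib. The probe was well above background on 12 of 12 arrays, at signals of 377.7 to 513.9 intensity units, and it was not called under any alternative setting, though with spike-in scaling its differences from control turned positive (0.16, 0.20 and 0.14 with piroxicam, carprofen and robenacoxib).

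**Figure D2:**
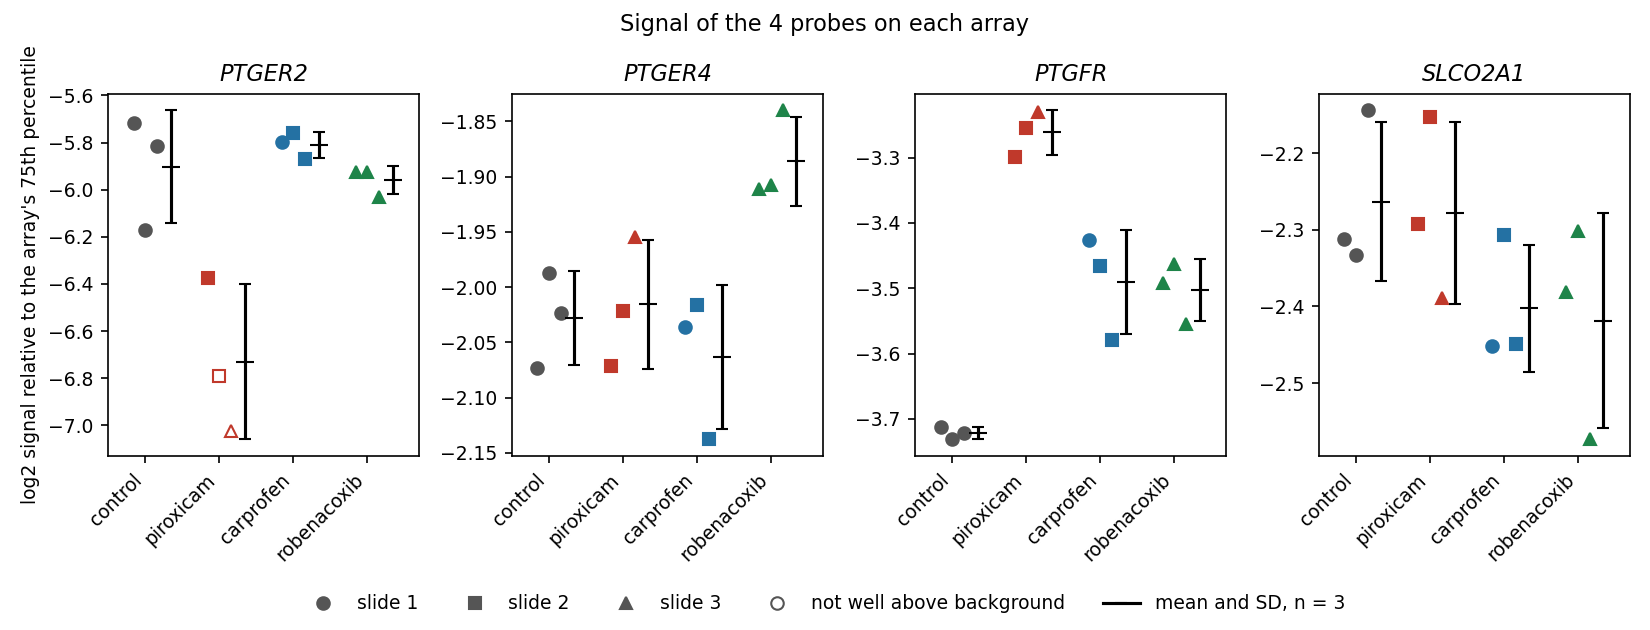
Level of each probe on the 12 arrays (log2 scale, 0 being the 75th percentile of the array; each panel has its own axis), with marker shape for the slide, open markers for spots not well above background, and the mean and SD of the 3 replicates beside each group. PTGER2 is low on the 3 piroxicam arrays, PTGER4 high on the 3 robenacoxib arrays, PTGFR lowest in control and highest in piroxicam arrays, and SLCO2A1 overlaps in all groups.

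The 4 genes thus had 4 patterns. Piroxicam against control gave 1 call higher (PTGFR) and 1 lower (PTGER2) of 4, in a comparison where 27.8% of all tested probes were called, 12.1% higher and 15.7% lower. Carprofen against control gave 1 call higher (PTGFR) and 0 lower, where 32.7% of all probes were called, 13.4% higher and 19.3% lower. Robenacoxib against control gave 2 calls higher (PTGER4 and PTGFR) and 0 lower, where 22.2% of all probes were called, 9.6% higher and 12.6% lower. Between the drugs, 1 of 4 was called in each direction for carprofen against piroxicam, where 37.5% of all probes were called, 18.5% higher and 19% lower. The same counts held for robenacoxib against piroxicam, where 27.1% of all probes were called, 13.7% higher and 13.4% lower. For robenacoxib against carprofen 1 of 4 was called higher (PTGER4) and 0 lower, where 8.11% of all probes were called, 4.35% higher and 3.76% lower. The 3 drug comparisons share the same control arrays. With shares of this size among all probes, the count of calls among 4 genes is no result about the group. Groups did not overlap for 2 of 4 genes with piroxicam, 1 with carprofen and 2 with robenacoxib against control, where 47.7%, 47.1% and 41.5% of all tested probes did not overlap. Between the drugs they did not overlap for 2 of 4 (carprofen against piroxicam), 3 of 4 (robenacoxib against piroxicam) and 2 of 4 (robenacoxib against carprofen), beside 47.3%, 42% and 27.2% of all probes. A single test of any difference among the 4 groups was called for PTGFR (adjusted p = 0.000168), PTGER2 (0.00355) and PTGER4 (0.0308) and not for SLCO2A1 (0.309); 48% of all tested probes passed it. With piroxicam the 4 genes had a median change of 0.00, beside -0.02 over all tested probes; the same pair of medians was 0.03 and -0.02 for carprofen, and 0.04 and -0.03 for robenacoxib.

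**Figure D3:**
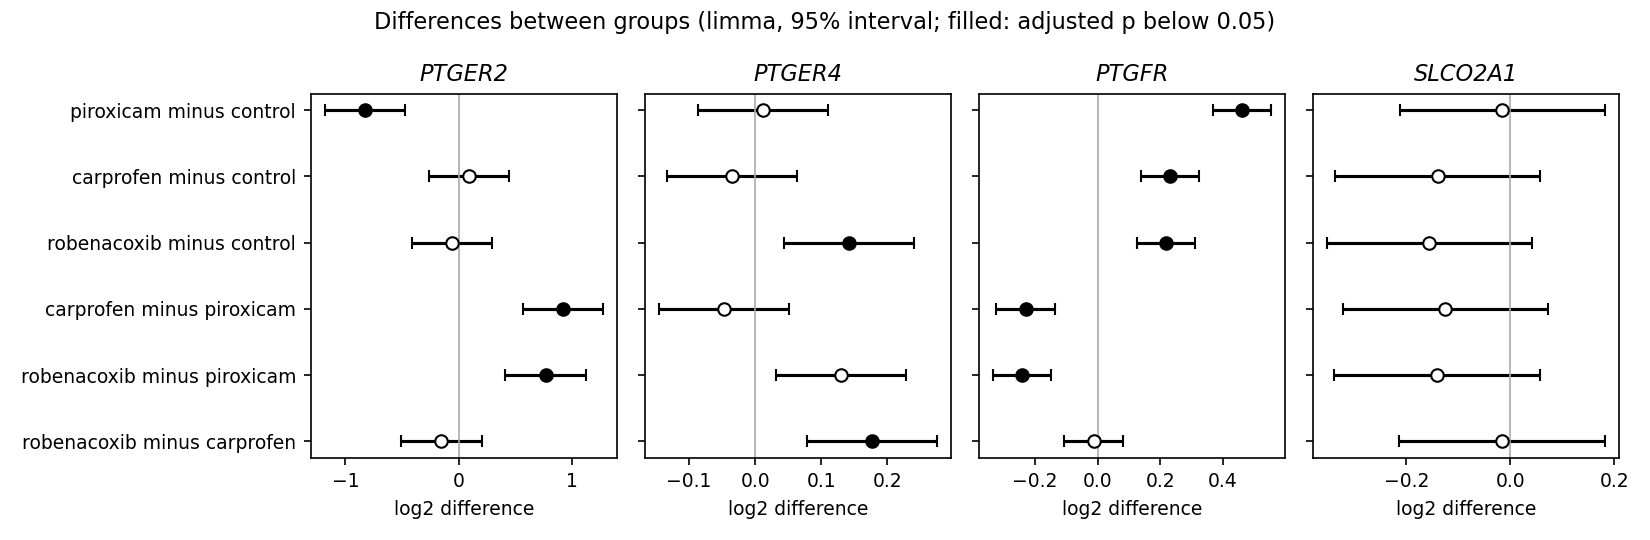
Log2 difference of each probe in the 6 comparisons of groups, with the 95% interval of the fit (not adjusted for the number of probes; each panel has its own axis); filled points have an adjusted p below 0.05. PTGFR is above 0 for all 3 drugs against control, from 0.22 to 0.46, PTGER2 is at -0.83 with piroxicam against control, and SLCO2A1 has no filled point.

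The receptors that raise cyclic AMP, EP2 and EP4, were called in different comparisons. With piroxicam PTGER2 fell while PTGER4 differed by 0.01, and with robenacoxib PTGER4 rose while PTGER2 differed by -0.06. Of the alternative settings, 18 of 23 kept the PTGER2 call and 10 of 24 the PTGER4 call. The receptors were not tested against each other. Over the 12 arrays PTGER2 and PTGFR ran opposite to each other (Pearson r = -0.713, Spearman rho = -0.497), a description in which the 3 piroxicam arrays are low for the former and high for the latter and which shares each array's scaling. The other 5 pairs of the 4 genes had r between -0.315 and 0.084.

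**Figure D4:**
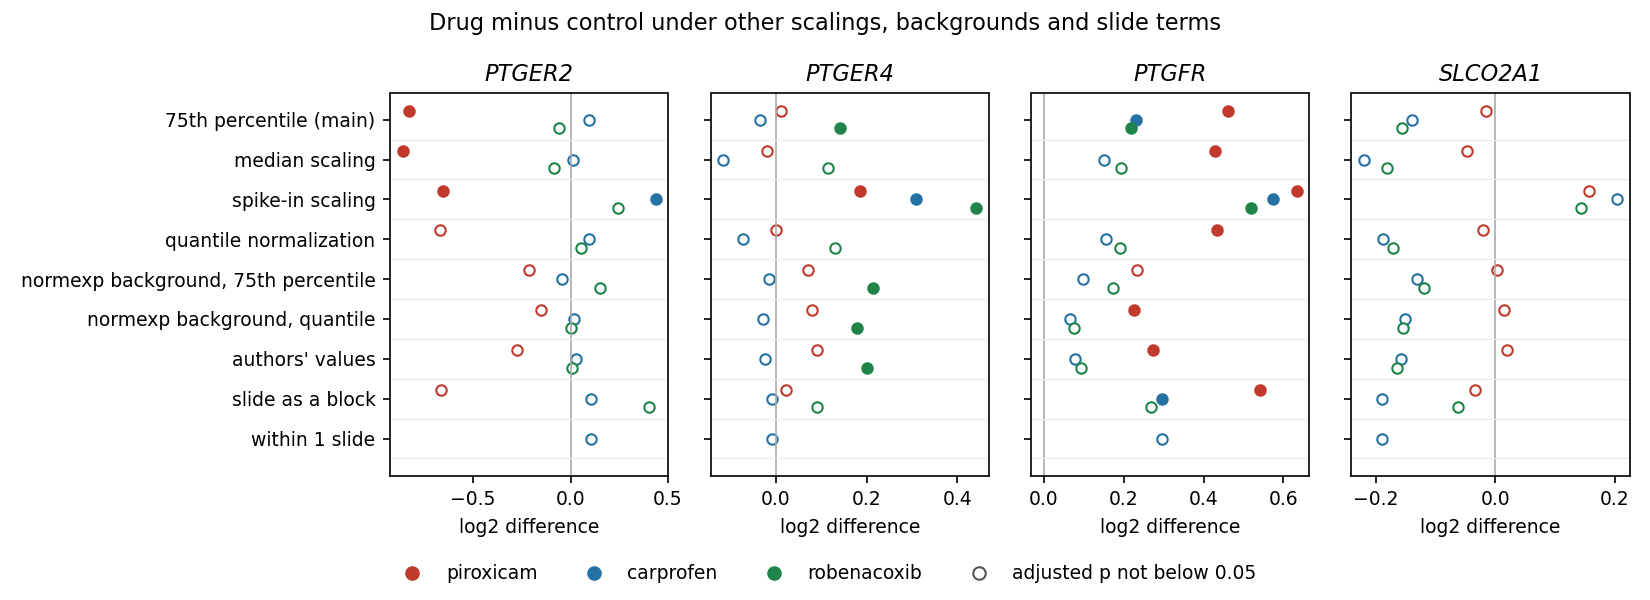
Log2 difference from control of each probe with each drug under the scaling used here and under other scalings, background corrections and slide terms (each panel has its own axis; within 1 slide only carprofen and control could be compared); filled points have an adjusted p below 0.05. PTGFR stays above 0 in every row, from 0.07 to 0.63, PTGER2 with piroxicam stays below 0 but shrinks from -0.83 to -0.21 with the normexp background and to -0.15 with that background and quantile normalization, and SLCO2A1 has no filled point.

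Of 86 other genes listed for the prostanoid pathway, 24 could be named on the array and 19 were tested. With piroxicam 3 of the 19 were called higher and 3 lower, with carprofen 3 and 5, and with robenacoxib 3 and 3, which is 31.6%, 42.1% and 31.6% of them beside the 27.8%, 32.7% and 22.2% of all probes. Among other receptors PTGDR2, a prostaglandin D2 receptor, was measured and not called: it differed from control by 0.43, 0.47 and 0.35 with piroxicam, carprofen and robenacoxib, with an SE of 0.31. Among the synthesis genes PTGS2, which encodes cyclooxygenase 2, fell with piroxicam by 0.49 and rose with carprofen by 0.47 and with robenacoxib by 0.30 (adjusted p = 0.000108, 0.000107 and 0.00188). In piroxicam-treated cells PTGS2 and PTGER2 were thus both called lower, PTGS2 in 24 of 24 alternative settings and the dim PTGER2 in 18 of 23. With the other drugs PTGS2 was higher and PTGER2 was not called. PTGS1, cyclooxygenase 1, differed by 0.98, 0.37 and 0.84 with an SE of 0.59 on its brighter probe and was not called. On that probe piroxicam replicate 3 was at -3.92 and the other piroxicam arrays at -6.56 and -6.21. Without replicate 3 the piroxicam difference was 0.16. The second PTGS1 probe was well above background on 0 arrays. PTGES, a prostaglandin E synthase, differed by -0.25, -0.08 and -0.34 with an SE of 0.11 and was not called on its brighter probe; its second probe was called lower with robenacoxib (-0.48). PTGDS, a prostaglandin D synthase, was not called either. AKR1C3 was well above background on 0 arrays.

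ABCC1, an export pump of the transport list, was not called against control (0.11, -0.06 and -0.08). It was lower with carprofen (difference -0.17, adjusted p = 0.00610) and robenacoxib (difference -0.19, adjusted p = 0.00507) than with piroxicam; with spike-in scaling these became 0.00 and -0.06 and were not called. ABCC2, another export pump, was well above background on 0 arrays. In the signalling list 4 genes were tested, and those that were called were lower. PRKACA, a catalytic subunit of the cyclic AMP-dependent protein kinase, fell by 0.34 with piroxicam (adjusted p = 0.00349), by 0.20 with carprofen (adjusted p = 0.0320) and by 0.26 with robenacoxib (adjusted p = 0.0146). GNAI2, an inhibitory G protein subunit, fell by 0.21 with piroxicam (adjusted p = 0.0164) and by 0.17 with robenacoxib (adjusted p = 0.0461), and differed by -0.08 with carprofen, not called. With spike-in scaling PRKACA was 0.14 above control with carprofen and 0.04 with robenacoxib, and GNAI2 0.13 above it with robenacoxib. With the slide as a block neither gene was called in these comparisons. Leaving out 1 array kept the PRKACA call in 12, 8 and 10 of 12 fits with piroxicam, carprofen and robenacoxib. It kept the GNAI2 call in 11 of 12 fits with piroxicam but in 1 of 12 with robenacoxib, the fit without robenacoxib replicate 1. GNAS, the stimulatory G protein subunit through which EP2 and EP4 act, was not called with any drug on its brightest probe. Of its 5 tested probes 1 was called lower with piroxicam, 2 with carprofen and 0 with robenacoxib. CREM, a cyclic AMP response factor, was not called with any drug.

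Of 9 tested genes that cyclic AMP or prostaglandin E2 can induce, 3 were called higher with piroxicam, 2 higher and 4 lower with carprofen and 2 higher and 1 lower with robenacoxib. Among all tested probes 12.1%, 13.4% and 9.6% were called higher with piroxicam, carprofen and robenacoxib, and 15.7%, 19.3% and 12.6% lower. The counts among 9 genes are given as a description. MYC rose by 0.64 with piroxicam and fell by 0.44 with carprofen, though with spike-in scaling the carprofen difference was -0.09. VEGFA, the vascular growth factor, rose by 0.53 with piroxicam and by 0.25 with carprofen, though its second probe was called lower with carprofen (-0.21). CXCL8, a neutrophil attractant, rose by 0.49 with piroxicam and by 0.42 with robenacoxib, and 4 of its 4 probes were called higher with each. It fell by 0.12 with carprofen (adjusted p = 0.0252), where 1 of the 4 probes was called lower. Spike-in scaling raised every difference of carprofen from control by 0.34, which is more than this fall. CCND1, a cyclin of the early cell cycle, fell by 0.23 with carprofen and by 0.22 with robenacoxib, whereas with spike-in scaling it was 0.11 and 0.08 above control. BCL2, which restrains cell death, rose by 0.16 with carprofen and by 0.19 with robenacoxib. The carprofen call of BCL2 held in 21 of 25 alternative settings (0.08 to 0.51) and its robenacoxib call in 22 of 24 (0.14 to 0.49). All calls in this list were those of limma at an adjusted p below 0.05. The list's median change was 0.19, 0.03 and 0.08 with the 3 drugs in the same order, beside -0.02, -0.02 and -0.03 over all probes. Since the list was chosen with earlier results of these data known, these medians are a description and no test of the list.

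**Figure D5:**
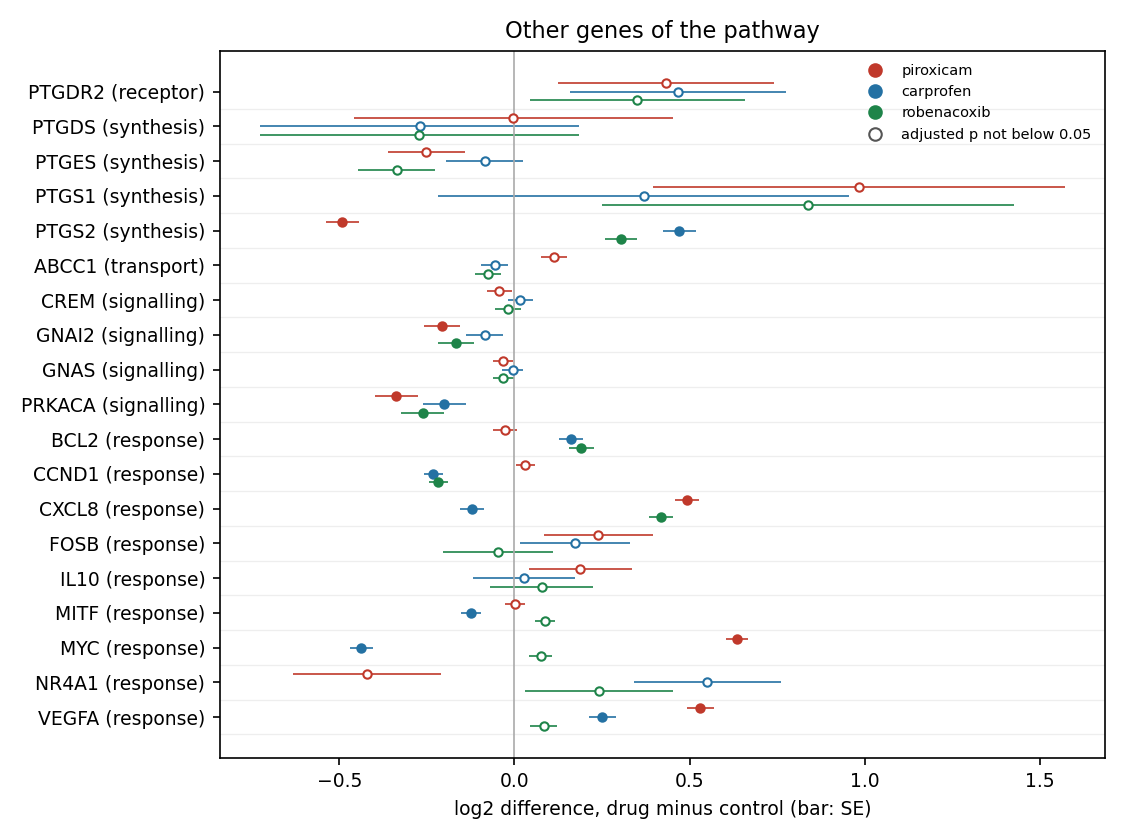
Log2 difference from control, with its SE, of the 19 tested genes of the prostanoid pathway other than the 4 genes described here, for each drug; filled points have an adjusted p below 0.05. PTGS2 lies at -0.49 with piroxicam and at 0.47 and 0.30 with carprofen and robenacoxib, and the 3 points of PRKACA lie between -0.34 and -0.20.

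The named genes whose levels ran most like each of the 4 over the 12 arrays were found among 546 or 547 candidates well above background on every array. For PTGER2 these were BCL2L2 (r = 0.897), CTSK (0.891) and BRD2 (0.882), and SNAI2 (-0.923), FLT3 (-0.919) and RARA (-0.911) ran most against it. For PTGFR they were FER (0.909), ZNF331 (0.905) and ATP7B (0.877), and against it OAS1 (-0.867), LOC403555 (-0.862) and TJP1 (-0.850). For PTGER4 they were SEC61B (0.833), ESRRA (0.816) and ACTG1 (0.709), and against it TUBD1 (-0.731), SLC1A3 (-0.721) and CD38 (-0.691). For SLCO2A1 they were HTR1B (0.879), DHDH (0.869) and RLN2 (0.832), and against it MCL1 (-0.659), PPP2CA (-0.629) and RPE65 (-0.625). By rank some of these likenesses were weaker. Spearman rho ran from 0.517 (CTSK with PTGER2) to 0.881 (FER with PTGFR) for the most alike genes. For those running against, it ran from -0.888 (SNAI2 with PTGER2) to -0.545 (PPP2CA with SLCO2A1). These correlations follow the 4 group levels and each array's scaling and are given as a description.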

How the data were processed

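RNA from 12 cultures of the dog melanoma line Mi/CMM1 was measured on single-colour Agilent arrays. Per the file headers, the deposited intensity is the processed signal of Feature Extraction 10.7.3.1 (protocol GE1_107_Sep09), which subtracts background. The submitters' processing notes name limma 3.24.15. The authors' deposited value table is on a log2 scale with array medians near 7.67, and follows the log2 processed signals at a correlation of 0.985 to 0.992; how its background was corrected and how it was normalized stays unknown here, and it served as an alternative.

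Here log2 processed signals were centred on each array's 75th percentile over non-control spots, with outlier spots dropped and repeated spots averaged per probe. A probe was tested if at least 1 group had it well above background in all 3 replicates (31996 of 43603 probes). limma 3.58.1 in R 4.3.3 fitted 4 group means over the 12 arrays (8 residual degrees of freedom) and 6 two-sided contrasts; adjusted p are Benjamini-Hochberg values over the tested probes of a comparison, called below 0.05, and 95% intervals are unadjusted. The script was tested on simulated data. Probes were matched by RefSeq accession to RefSeq's gene names for UU_Cfam_GSD_1.0 (no positions were taken), giving names to 1313 probes (3.01%). Where a gene had several tested probes, the brightest on average stood for it. The normexp alternatives used the median spot signal, since the mean signal was not used here. Precision is limited by the number of arrays; the median SE of a difference was 0.05 on the log2 scale.

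The 4 genes and all gene lists were chosen with earlier results of these data known. In each list up to 4 called genes without overlapping groups and with the largest changes were named per comparison, and PTGS1, PTGS2 and PTGES always; the likeness lists took the 3 highest and the 3 lowest correlations. Replicate numbers were checked as pairs: the 18 correlations of same-numbered arrays' deviations ran from -0.449 to 0.200, 3 were over 0.1, and the numbers were not treated as pairs. Other background corrections, scalings, filters, fits, slide and replicate blocks, and leaving out each array were tried. No sequences or positions of the probes were used here.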

Additional observations from a re-analysis of the deposited data

How the results depend on the processing

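Settings changed values here as follows, as log2 differences unless called counts; the cause was not tested beyond what a setting itself does. The normexp background adds an offset of 50, which shrinks the log2 differences of dim probes. With it and 75th-percentile scaling, PTGER2 was -0.21 with piroxicam, -0.043 with carprofen, 0.15 with robenacoxib and 0.19 for robenacoxib against carprofen; PTGFR was 0.23, 0.098, 0.17 and 0.075, and SLCO2A1 0.0027 with piroxicam and 0.013 for robenacoxib against carprofen. With normexp and quantile normalization, PTGER2 was -0.15 and SLCO2A1 0.014 with piroxicam, and PTGFR 0.066 with carprofen, 0.077 with robenacoxib and 0.010 between them. In the authors' values PTGER2 was -0.28 with piroxicam and 0.0054 with robenacoxib, SLCO2A1 0.019 with piroxicam, and PTGFR 0.079 with carprofen, 0.094 with robenacoxib and 0.014 between them.

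With quantile normalization PTGER2 was -0.67 with piroxicam and 0.055 with robenacoxib, PTGFR 0.16 with carprofen, 0.19 with robenacoxib and 0.035 between them, PTGER4 0.13 with robenacoxib and SLCO2A1 0.017 for robenacoxib against carprofen. With median scaling PTGFR was 0.15, 0.19 and 0.042 in those comparisons, PTGER4 -0.020 with piroxicam and 0.12 with robenacoxib, and SLCO2A1 0.038 for robenacoxib against carprofen. Spike-in scaling raised all differences from control by 0.17 (piroxicam), 0.34 (carprofen) and 0.30 (robenacoxib), so that the median tested probe stood at 0.15, 0.32 and 0.27. PTGER4 was then 0.18 with piroxicam (called), 0.31 with carprofen (called) and 0.12 for carprofen against piroxicam; PTGER2 0.44 with carprofen (called) and 0.24 with robenacoxib; SLCO2A1 0.16, 0.20 and 0.14 with the 3 drugs and 0.047 for carprofen against piroxicam. PTGES was 0.26 and PRKACA 0.14 with carprofen, PRKACA 0.038 and GNAI2 0.13 with robenacoxib, CCND1 0.11 and 0.082 with these drugs, and ABCC1 0.0015 for carprofen against piroxicam. Of all calls against control, 43.6%, 40.9% and 43.2% were higher with piroxicam, carprofen and robenacoxib; with spike-in scaling it was 93.1%, 99.7% and 99.3%, and with median scaling 31.7%, 21.5% and 41.3%. Between drugs the share called higher was 49.3% (carprofen against piroxicam), 50.5% (robenacoxib against piroxicam) and 53.6% (robenacoxib against carprofen); it was 90.8%, 90.0% and 17.5% with spike-in scaling, 38.0%, 56.7% and 76.3% with median scaling, and 43.1% in the last comparison with normexp and quantile normalization.

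With the slide as a block PTGER2 was -0.66 with piroxicam, 0.40 with robenacoxib and 0.30 for robenacoxib against carprofen, PTGFR 0.27 and PTGER4 0.090 with robenacoxib, SLCO2A1 0.13 for robenacoxib against carprofen, and PTGS1 -0.38 with piroxicam and -2.17 with robenacoxib. It called 1627, 5251 and 446 of all probes with the 3 drugs against control, beside 8896, 10477 and 7113. Each slide-blocked difference from control passes through carprofen replicate 1, the only treated array on the slide of the controls. Within slide 1 PTGFR was 0.30 with carprofen. Slides 1 and 3 have 1 array in an arm, and fits within them called 1 and 0 of all probes, so that the 0 of the 4 genes called there says nothing about stability. PTGER4 with robenacoxib stayed at 0.14 but was not called without the filter on dim probes, with only the 2 groups compared or with the replicate number as a block (adjusted p = 0.0807, 0.0561 and 0.0771); the replicate block changed no other call of the 4 genes except PTGER4 between robenacoxib and carprofen. PTGER2 had no value where a probe had to be above background on all arrays.

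The number of the 4 genes called with piroxicam (2) became 0 with normexp and 75th-percentile scaling and 1 with normexp and quantile normalization, quantile normalization, the authors' values, the filter over all arrays or the slide block, and 3 with spike-in scaling. With carprofen (1) it became 0 with both normexp settings, quantile normalization, median scaling or the authors' values, and 3 with spike-in scaling. With robenacoxib (2) it became 1 with both normexp settings, the authors' values, no filter, the replicate block or 2 groups, and 0 with quantile normalization, median scaling or the slide block. For carprofen against piroxicam (2) it became 0 with both normexp settings, the authors' values or within slide 2 (2 arrays in each arm), and 1 with spike-in scaling or the filter over all arrays; for robenacoxib against piroxicam (2) it became 0 with both normexp settings, the authors' values. For robenacoxib against carprofen (1) it became 0 with both normexp settings, spike-in scaling, median scaling, the authors' values, no filter, the slide block, the replicate block or 2 groups.

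Leaving out each array in turn gave ranges of -0.018 to 0.040 (PTGER4) and -0.078 to 0.045 (SLCO2A1) with piroxicam, -0.042 to 0.19 (PTGER2) and -0.059 to 0.0016 (PTGER4) with carprofen, -0.19 to 0.034 (PTGER2) and 0.12 to 0.16 (PTGER4) with robenacoxib, and -0.057 to 0.020 (PTGFR) and -0.075 to 0.062 (SLCO2A1) for robenacoxib against carprofen; the number of the 4 genes called ranged from 1 to 2 with robenacoxib and from 0 to 1 for robenacoxib against carprofen. PTGER2 with piroxicam ranged from -1.01 to -0.68 and was called in 12 of 12 such fits.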
